A study of Mus musculus with 22 samples.

Results

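The ac4C immunoprecipitate (IP) of diabetic mouse kidney was compared with the RNA-seq library of the same animal, peak by peak, to show which transcripts and which places in them were recovered by the antibody beyond their abundance. The comparison used 12 of the 22 libraries of the series, an IP and an input library of each of 6 db/db animals, paired by animal number. All 9857 peaks of the deposited table, in 4909 genes, entered the fit. A ratio is reported for the 6729 peaks (68.3%) with a mean of 10 or more reads in the 6 input libraries, which lie in 2955 genes. The other 3128 peaks (31.7%) had too few input reads for a ratio and are only counted.

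The db/db mice were males that lack a working leptin receptor, and they become obese and diabetic. The 5 db/m males, whose 10 libraries serve here only as a second set of animals, carry 1 working copy and stay lean. None of the groups used here was labelled with a treatment, and the age at which these kidneys were taken was not given in the sources used here. The tissue was whole kidney, so fewer cells of a type and less RNA per cell cannot be told apart. The IP libraries held 7577171 to 9862426 reads in peaks and the input libraries 3160992 to 3352535.

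N4-acetylcytidine (ac4C) is a cytidine that carries an acetyl group. NAT10, an RNA acetyltransferase concentrated in the nucleolus, writes it on ribosomal RNA, on some transfer RNAs with its partner THUMPD1, and on messenger RNA, where it has been tied to stability and translation. In acRIP-seq, short RNA fragments are pulled down with an antibody against ac4C and sequenced. The methods describe poly(A) selection and fragmentation for the IP libraries, whereas the labels describe only a standard RNA-seq library, and no IP with a control antibody was analysed here. Recovery by the antibody and differences between the 2 library types therefore cannot be told apart in a ratio.

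The ratio is given on the log2 scale, as IP over input after scaling the libraries by the TMM method. A value of 0 stands for the typical peak, not for the absence of ac4C, because all regions of the table had been called as peaks and the total amount of RNA recovered is not known. Values of single animals are log2 of CPM (counts scaled to a common total of reads in peaks) plus 0.5. Fitted values are from edgeR's quasi-likelihood test with the animal as a block. Their standard errors come from the common trend of the spread over peaks and do not measure the spread among animals at a single peak. A peak was called when the Benjamini-Hochberg adjusted p over all 9857 peaks was under 0.05 and the absolute log2 ratio was over 1.

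To show what lies at both ends of the scale, the first annotated transcript bases of genes were read for the peaks that covered an annotated start. The sequences below are the first 30 bases of the RefSeq transcripts (GRCm38.p6), 5′ to 3′, with every cytidine in capitals, since ac4C is made from cytidine. The first 4 belong to the coding peaks with the highest ratios among the called peaks that covered the start base and the 50 bases after it, and the last 4 to those with the lowest. They are Lgr4 (chr2:109917647-109917676, plus strand), a receptor for R-spondins, Pkp4 (chr2:59160850-59160879, plus strand), a junctional plaque protein, 1810013L24Rik (chr16:8830100-8830129, plus strand) and Arih1 (chr9:59486345-59486374, minus strand), a ubiquitin ligase. The low ones are Ubap2l (chr3:90052451-90052480, minus strand), Guca2b (chr4:119658916-119658945, minus strand), which encodes uroguanylin, Arhgdia (chr11:120581595-120581624, minus strand), and Atp5g1 (chr11:96075602-96075631, minus strand), a subunit of ATP synthase.
Lgr4: agaagggaaaaggaCgCgCggagCgggagC
Pkp4: ggggCggCggCCtCtgagCagtCtagaggg
1810013L24Rik: gaggCgtCgaCgCCgCCgCCgtagaCgaCg
Arih1: gtCtgCCgggCCCgCgCgCgtCgCgCCatg
Ubap2l: ggggtgtCagtgtggaggagaCtgaggtaa
Guca2b: tataaggggCtgCtggCCCagaggCaggtg
Arhgdia: CggaagtCttgtgaCCCCggaagtgaCCgt
Atp5g1: gggaggtgagtCagtCaCCttgagCaggga

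The peaks of Arih1, Ubap2l, Guca2b and Atp5g1 also reached upstream of the annotated start, so part of them lies outside the printed transcript. The 4 high sequences held 5, 7, 11 and 13 cytidines in 30 bases, in the order printed, and the 4 low ones held 2, 6, 8 and 5. Both sets overlapped in cytidine number, and G plus C made up 66.7% to 83.3% of the high and 56.7% to 63.3% of the low sequences. Over the first 50 bases the sets overlapped in G plus C too, with 68% to 74% in the high and 62% to 72% in the low ones. Lgr4 had 654 to 2197 IP reads (median 1195) beside 56 to 130 input reads (median 63.5), a log2 ratio of 2.43 (standard error 0.11). Guca2b had 621 to 1107 IP reads (median 814) beside 838 to 1228 input reads (median 1079), a log2 ratio of -1.87 (standard error 0.07). Fewer IP than input reads at Guca2b, although the IP libraries held more reads in peaks, shows how far below the typical peak it lay.

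Across all 123 peaks that covered a RefSeq start and the 50 bases after it, 1 per place, the ratio had a Spearman's rho of 0.20 with the G plus C share of those 50 bases and of -0.05 with the share of cytidine. In the animals singly, the rho with G plus C was 0.14 to 0.24. The 41 starts richest in G plus C (72% to 92%) had a median log2 ratio of 0.55, the middle 41 had 0.13, and the 41 poorest (42% to 64%) had 0.03. Of these groups, 12, 8 and 7 peaks were called higher in IP and 1, 4 and 6 lower. The same peaks had a rho of -0.71 between ratio and the input level per kilobase in db/m mice, and G plus C itself had a rho of -0.22 with that level. The points of these correlations share libraries, base composition and abundance, and they are given as descriptions.

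In the fit, 773 kept peaks in 431 genes were called higher in IP, which is 11.5% of the kept peaks, and 408 in 296 genes were called lower, which is 6.06%. Higher peaks thus made up 65.5% of the calls, and 79.0% when the libraries were scaled without TMM, which moved the median of all ratios by 0.11. The balance turned with at least 50 input reads, where 306 peaks were called higher and 381 lower (44.5% higher). With 1 peak per overlap group it was 375 and 308 (54.9%), and without a fold threshold 2329 and 2508 (48.1%). The middle of the distribution was narrow, with quartiles at -0.51 and 0.54, and the 5% and 95% points were -1.06 and 1.45, a span of 5.70-fold. A log2 ratio beyond 2 was reached by 90 peaks in 52 genes upwards and by 17 peaks in 16 genes downwards.

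The median SD of a peak's ratio over the 6 db/db animals was 0.255, against an SD of 0.768 among the peaks. Any 2 db/db animals ranked the peaks with a Spearman's rho of 0.795 to 0.835. For the 1494 peaks with 10 to 50 input reads the median rho was 0.593 and the median SD 0.481, and 31.3% of them were called higher and 1.81% lower. For the 5235 peaks with 50 or more the median rho was 0.841 and the median SD 0.218, with 5.85% and 7.28% called. The mean ratios of db/db and db/m mice had a rho of 0.956 across the 6729 peaks, which share transcripts and library preparation. Of the peaks called higher, 669 (86.5%) were also called higher in the separate fit of the db/m animals, and of those called lower, 342 (83.8%) were also called lower. All 773 and all 408 had the same sign there. Peaks called in 1 genotype and not in the other are not thereby shown to differ. The difference itself passed in 2 of 9857 peaks (0.0203%, edgeR). Without the animal as a block it passed in 0, with 585 peaks at an unadjusted p under 0.05, against 666 with the block.

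The 2 peaks were in Lpl, lipoprotein lipase, and in Brd2, a bromodomain protein. At Lpl (chromosome 8, 68905265 to 68905533) the db/db animals, in the order of their numbers, had IP reads of 62, 56, 33, 63, 43 and 3110 beside 13 to 22 input reads. Animal 6 alone was high. The db/m animals had 27921, 28794, 145, 24817 and 125 IP reads beside 211, 145, 51, 220 and 41 input reads, so 3 of the 5 were high and the other two lay near the db/db animals. The db/db minus db/m log2 difference was -2.24 (standard error 0.20, adjusted p = 8.53e-21, edgeR). The fit of the db/db animals used the common trend of the spread for all peaks. Whether the separate fit of this difference did so was not recorded, so this error and p may not reflect the spread among the animals at Lpl. At the Brd2 peak (34112173 to 34112353 on chromosome 17) the difference was 1.33 (standard error 0.30, adjusted p = 0.0293, edgeR), with a log2 ratio of 0.32 for db/db and -0.99 for db/m.

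The highest ratios among coding peaks of up to 1000 bases are described for 10 genes, 1 peak each. The first was Gm10800, a predicted gene whose reads may be shared with near-identical copies, with 823 to 1730 IP reads and 14 to 42 input reads. Its animal ratios were 3.07 to 5.06 with a median of 3.70, and the fitted log2 ratio was 3.92 (standard error 0.12). Ube2q1, a ubiquitin-conjugating enzyme, was next, at a peak over its gene start (chromosome 3, 89773616 to 89773796). It had 342 to 525 IP reads and 11 to 16 input reads, animal ratios from 2.88 to 3.69 with a median of 3.36, and a fitted log2 ratio of 3.49 (standard error 0.18), an 11.2-fold excess over the typical peak.

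The others were the zinc finger gene Zfp704 at 3.02, the transcription factor Maf at 2.92, the F-box gene Fbxw4 at 2.84, the homeobox gene Hoxd8 at 2.84, Cacul1 at 2.80, Aebp2, a partner of the Polycomb repressive complex, at 2.72, Gse1 at 2.72 and the translation initiation factor Eif3j2 at 2.68. Their standard errors were 0.15 to 0.21. Every db/db animal was at 1.66 or above in each of them, the lowest being animal 5 at Cacul1, and each was between 2.69 and 3.12 in the db/m fit. Of these 10 peaks, 5 lay at the start of their gene, namely those of Ube2q1, Zfp704, Fbxw4, Cacul1 and Eif3j2. Their mean input counts were low, from 14.2 reads at Gse1 to 31.3 at Eif3j2 and Aebp2.

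The lowest coding peaks of up to 1000 bases were nearly empty in IP. Ubap2l, a stress granule protein gene, had 2, 5, 4, 1, 38 and 6 IP reads in animals 1 to 6 beside 52 to 96 input reads at a peak over its start (chromosome 3, 90052380 to 90052628). Its log2 ratio was -4.74 (standard error 0.28) and -5.85 to -4.52 with each animal left out, and animal 5, at -1.94, lay apart from the other animals, which were at -4.97 to -4.29. The long peak of the same gene, over 9122 bases, had a log2 ratio of 0.13 (standard error 0.07). The place at the Ubap2l start overlaps 4933434E20Rik, and the counts do not separate strands, so the transcript behind it is uncertain.

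Others among the lowest were Cers2, a ceramide synthase, at -4.60, Tnip1 at -4.20, Stat6 at -4.09, Adgrg1 at -3.84, the taurine transporter Slc6a6 at -3.70, mitochondrial thioredoxin Txn2 at -3.35 and cystathionine beta-synthase Cbs at -3.15. These 7 rest on few reads, with 0 to 45 IP and 3 to 77 input reads in any animal, and their standard errors were 0.28 to 0.93. Leaving out 1 animal moved Stat6 to as low as -5.14, Cers2 to -5.23, Tnip1 to -4.89 and Txn2 to -4.27. Only Cers2 among them had more than 50 input reads in every animal.

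**Figure D1:**
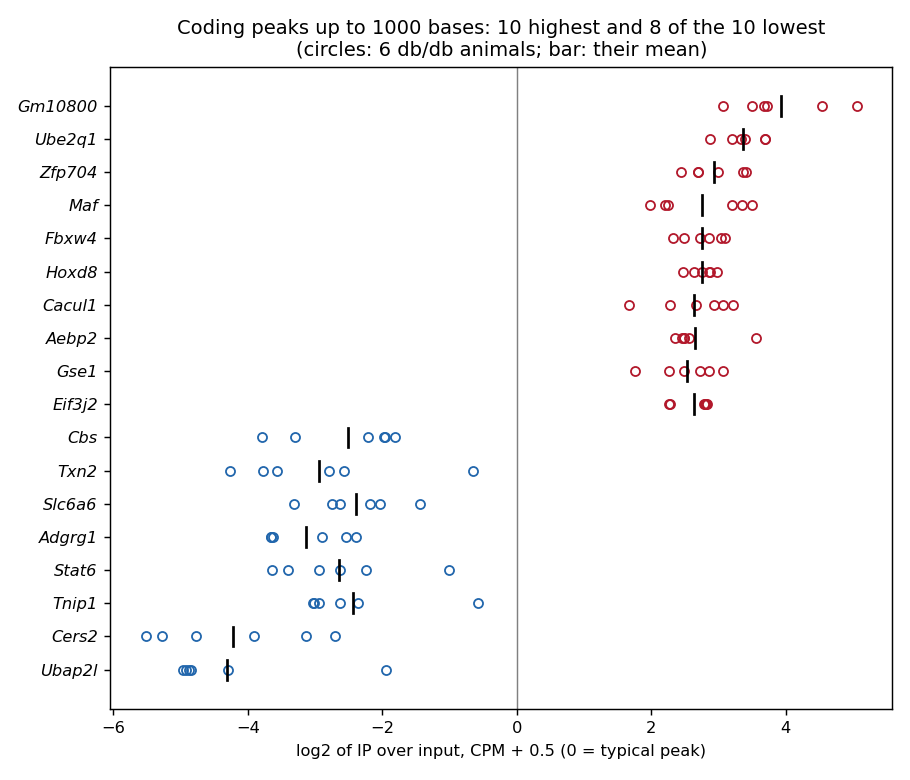
Log2 ratio of IP over input (x axis, CPM plus 0.5) in each of the 6 db/db animals (circles) with their mean (bar), for the 10 highest (red) and 8 of the 10 lowest (blue) coding peaks of up to 1000 bases by fitted ratio. No circle of the red peaks lies below 1.66, and the animals of Ubap2l, Tnip1 and Txn2 spread widely, on few IP reads.

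Among coding peaks of over 1000 bases the highest were Hnrnpll, an RNA-binding regulator of splicing, at 2.59 (standard error 0.11), Tab2, an adaptor of inflammatory kinase signalling, at 2.46 (0.18), Nkap at 2.35 (0.25) and the collagen VI chain Col6a1 at 2.32 (0.15). Nkap had 30 to 264 IP reads and a mean of 10 input reads, right at the minimum. Its animal ratios ran from 0.46 to 3.28 (SD 1.10). The lowest were Xirp1 at -2.15, Acat1, which works in ketone body metabolism, at -1.73 (standard error 0.12), Pak4 at -1.65 and the mitochondrial chaperone Hspa9 at -1.54 (standard error 0.04). The regions given for Xirp1 and Pak4 span 147205 and 161975 bases and run beyond the gene models, so their reads cannot be assigned to those genes. At least some long regions were not counted over their whole span in the deposited table. Of 66 short peaks that lay within a long peak of another gene, 18 had more input reads than that long peak.

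Among the other biotypes, the 3 kept peaks of the misc_RNA class were all called higher. They were Rn7s6, Rn7s2 and Rn7s1, copies of 7SL RNA, the RNA of the signal recognition particle. Rn7s6 had 1561 to 2880 IP reads and 63 to 110 input reads, and a log2 ratio of 3.02 (standard error 0.09). Rn7s2 and Rn7s1 were at 2.59 and 2.55, and in each of the 3 animal 6 had the lowest ratio, 2.23, 1.67 and 1.59. The copies are nearly identical, so their reads may be shared, and how much of 7SL RNA survived poly(A) selection in either library was not tested. Gm44732, annotated antisense to the cell cycle inhibitor gene Cdkn1c, had a log2 ratio of 2.62 (standard error 0.07), and without strand its reads cannot be told from those of Cdkn1c.

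The lowest noncoding region, 1500015A07Rik at -5.11 (standard error 0.48), had 0 to 6 IP and 19 to 41 input reads over 6163 bases and overlaps Afap1l1. The nonsense-mediated decay (NMD) transcripts Mrpl20, of the mitochondrial ribosome, and Tti2 had log2 ratios of -1.69 (standard error 0.18) and -1.16 (0.15). Gm19950, an antisense transcript, had -1.45 (0.07).

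Peak classes were compared within each animal by the median ratio of the class. Peaks within 500 bases of an annotated gene start had the highest median of the position classes, 0.28 ± 0.08 (SD, n = 6 animals) over 662 peaks of up to 1000 bases, against -0.04 over 2636 peaks inside the gene and 0.08 over 640 peaks within 500 bases of the gene end. The animal medians of the start class were 0.21 to 0.39 and did not overlap those of the inside class, -0.08 to -0.01. Start minus inside was 0.33 ± 0.07 (exact sign-flip permutation test, two-sided, p = 0.0312, the smallest that 6 animals allow, adjusted p = 0.0357 over 8 class comparisons), higher in 6 of 6 animals. Of the start peaks, 22.4% were called higher and 6.04% lower, of the inside peaks 11.3% and 6.53%, and of the end peaks 10.5% and 5.47%. Compared within 5 groups of peaks of like input level, start minus inside was 0.15, with the same p.

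End minus inside was 0.12 ± 0.04 and start minus end 0.21 ± 0.09 (SD, n = 6, both with the same exact p and adjusted p). With no minimum of input reads, end minus inside was 0.04 (exact p = 0.125). Start minus end went to 0.03 within groups of like input level (exact p = 0.406) and to -0.07 with at least 50 input reads. The 2836 peaks of up to 300 bases exceeded the 2603 peaks of over 1000 bases by 0.15 ± 0.04 and the 1290 peaks of 300 to 1000 bases exceeded the long ones by 0.12 ± 0.02 (both exact p = 0.0312, adjusted p = 0.0357). With at least 50 input reads, short minus long turned to -0.06. Between the 2 shorter classes the difference was 0.03 ± 0.02 (exact p = 0.0938). It turned to -0.17 with at least 50 input reads and to -0.01 with 1 peak per overlap group, and was 0.14 within groups of like input level.

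By biotype, NMD transcripts (202 kept peaks) exceeded coding ones (6416) by 0.14 ± 0.03 and long noncoding transcripts (104 of 475 peaks kept) by 0.16 ± 0.07 (SD, n = 6, exact p = 0.0312, adjusted p = 0.0357 for each). The first difference turned to -0.10 within groups of like input level (exact p = 0.0938). The second turned to -0.17 with 1 peak per group of overlapping peaks, and 82 of the 104 noncoding peaks were annotated antisense, where reads of the sense partner are counted too. No class difference was shown to differ between db/db and db/m mice (exact permutation test over 11 animals, adjusted p 0.571 to 0.879). Peaks of the list called in db/db mice had a median 0.06 above those of the db/m list in the db/db animals and 0.00 above in the db/m animals. With 1 peak per overlap group the difference between the lists turned negative. These values are descriptions only, since the lists were called on these libraries.

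**Figure D2:**
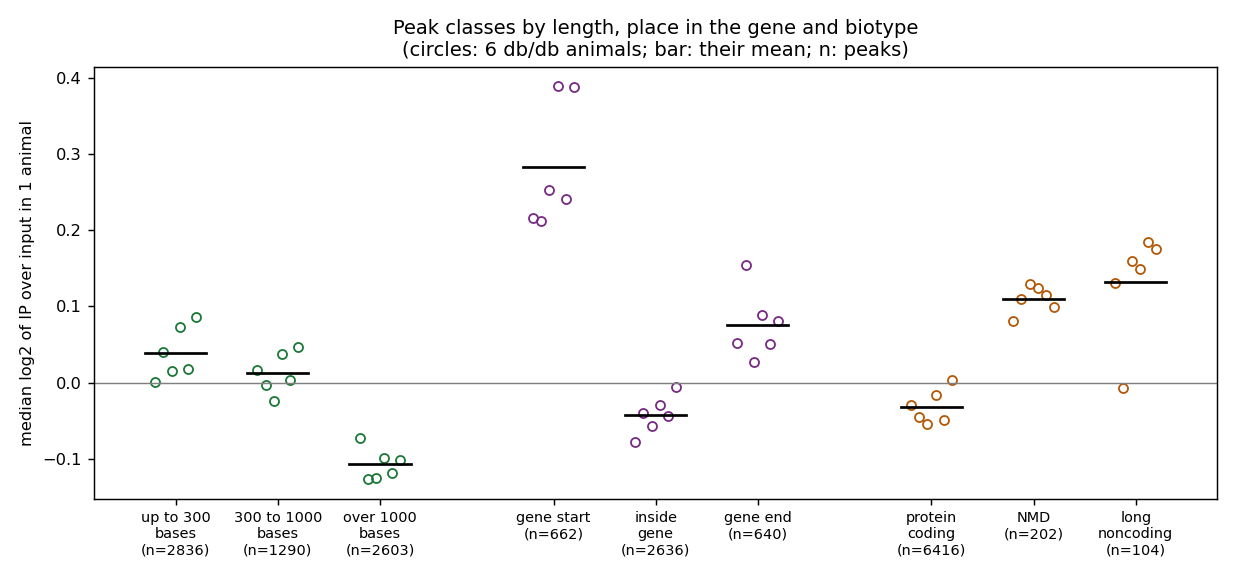
Median log2 ratio of IP over input in each db/db animal (circles) with the mean of the 6 (bar), for peak classes by length in bases, by position for peaks of up to 1000 bases (gene start or end, within 500 bases), and by biotype. Under each class stands its number of peaks, and the start class lies above the inside class in every animal.

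The ratio fell with abundance among the called peaks. Both peak lists were called on these libraries, so regions with few input reads may have entered mainly where IP reads were many. Taking the input level from other animals does not remove that selection. How much of the fall comes from it was not tested. For the 4126 kept peaks of up to 1000 bases, the input level per kilobase was taken from the db/m mice, whose reads do not enter the db/db ratio. The db/db ratio had a Spearman's rho of -0.62 with it across peaks, which share the library preparation and are not independent. Over kept peaks of any length the rho was -0.37. The 4126 peaks were split by that level into 5 input groups of nearly equal size. From the lowest to the highest input group, the median log2 ratio was 0.80, 0.32, 0.09, -0.23 and -0.69. The median input level of these groups ran from 31.0 to 874 CPM per kilobase. In the lowest group 39.9% of the peaks were called higher and 1.45% lower, and in the highest 2.67% and 21.7%. The medians of single animals in these 2 groups were 0.72 to 0.87 and -0.69 to -0.63, so all 6 animals showed the same order.

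**Figure D3:**
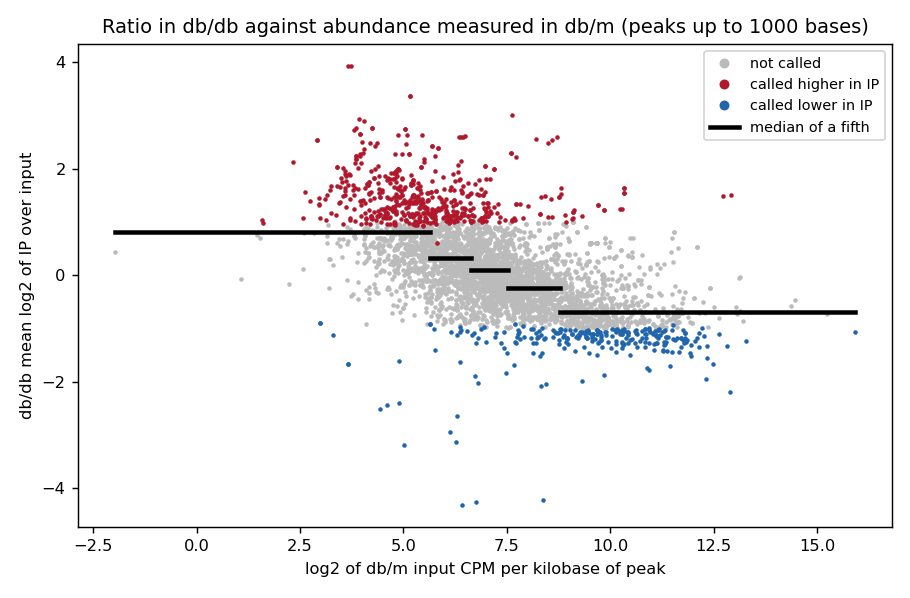
Mean log2 ratio of the 6 db/db animals (y axis) against the log2 input level per kilobase in the db/m animals (x axis) for 4126 peaks of up to 1000 bases, with called peaks in red and blue. Black lines are the medians of the 5 input groups, which step down from 0.80 to -0.69.

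Because the ratio moved with abundance, gene groups are given with their input counts. Lists were described by their kept peaks, beside 11.5% called higher and 6.06% lower and a median of -0.02 ± 0.02 over all kept peaks. The median input count of all kept peaks was 149.5 reads (mean of 6 libraries). Where not given below, a list's count was 664 for glucose and citrate cycle, 313 for proximal tubule and 671.5 for loop and distal tubule. Counts were 126 for podocyte, 133 for immediate early and KLF, 1558 for xenobiotic enzymes and 232 for the nucleolus. SR, hnRNP and Ddx had 281, chromatin 168, senescence 398, actin and myosin 395, the clock 136 and mitochondrially encoded RNA 126. A second value sets each peak of up to 1000 bases against the median of its input group.

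The lists of energy metabolism had medians below that of all kept peaks. In the nuclear-encoded respiratory chain, 25 of 63 kept peaks in 14 of 30 genes were called lower (16 peaks without TMM), and the median was -0.88 ± 0.04 (SD, n = 6). By edgeR 0 were called higher, as by DESeq2 and limma-voom, and 0 were above 0 at an unadjusted p under 0.05. Ndufb8, a complex I subunit, was the lowest at -1.95 (standard error 0.06), with 570 to 1225 IP and 1089 to 1559 input reads and animal ratios of -2.27 to -1.78. ATP synthase genes Atp5g1 (-1.55) and Atp5b (-1.43) and the succinate dehydrogenase gene Sdha (-1.25) were also called. Another Sdha peak was at -0.11 and not called. The median input count of these peaks was 1311 reads, and 7 of the 37 of up to 1000 bases lay above the median of their input group.

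In fatty acid oxidation, 14 of 49 peaks were called lower and 2 higher (9 and 2 without TMM), with a median of -0.75 ± 0.10 and a median input count of 825 reads. Acadl (-1.27), Acadvl (-1.26) and Hadh (-1.26), which act in the mitochondrial spiral, were among the lower ones, and both higher rows were overlapping peaks in Acsm2, a medium-chain acyl-CoA synthetase. In the glucose and citrate cycle list, 14 of 59 were called lower (9 without TMM), with a median of -0.56 ± 0.12. By edgeR, DESeq2 and limma-voom 0 were called higher, with 2 above 0 at an unadjusted p under 0.05 in edgeR. Khk, ketohexokinase, was the lowest at -1.68 (standard error 0.06), and Pck1 (-1.36) and G6pc (-1.03), enzymes of renal glucose output, were also called lower. A second Pck1 place, with more input reads (means of 19150 and 4039), was at -0.25 and not called, and G6pc was not called without TMM (-0.91). Of the peaks of up to 1000 bases, 3 of 16 in fatty acid oxidation and 12 of 29 in the glucose and citrate cycle list lay above the median of their input group.

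Cytosolic ribosomal proteins had 11 of 47 peaks called lower and 3 higher, with a median of -0.69 ± 0.07 at a median input count of 1074 reads. Rps6, the subunit phosphorylated downstream of mTOR, was the lowest at -2.04 (standard error 0.12), with 125 to 221 IP and 194 to 296 input reads. Rps10 was called higher at 1.54 (standard error 0.18), with animal ratios of 0.93 to 1.85. Of the peaks of up to 1000 bases, 14 of 34 lay above the median of their input group. Ribosomal protein genes have many processed copies, so their reads may be shared.

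Both tubular lists also had medians below that of all kept peaks. Of the 43 peaks of proximal tubule transport and endocytosis, 8 were called lower and 1 higher (3 and 2 without TMM), with a median of -0.45 ± 0.13. Megalin (Lrp2, -1.18), the organic anion transporter Slc22a6 (-1.18) and the glucose transporter Slc5a2 (-1.10, not called without TMM at -0.98) were among the lower ones, and the water channel Aqp1 was the higher one at 1.10 (standard error 0.13). The overlapping Aqp1 peak of the other list, with more input reads, was at 0.89 and not called. A second Lrp2 place, with a mean of 579 input reads beside 1092 at the lower place, was at -0.21 and not called. Of the 37 peaks of the loop of Henle, distal tubule and collecting duct, 9 were called lower and 2 higher (3 and 2 without TMM), with a median of -0.61 ± 0.10. Among the lower ones were the loop cotransporter Slc12a1 (-1.10) and the calcium-binding protein gene Calb1 (-1.07), neither called without TMM (-0.99 and -0.96), and both higher rows were 1 place in Scnn1a (1.16), the alpha subunit of the epithelial sodium channel, which both peak lists held. Against the median of their input group, 12 of 28 proximal and 15 of 28 distal peaks were above.

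In collagen, laminin and other matrix, 26 of 82 peaks in 9 of 21 genes were called higher and 2 lower (27 and 1 without TMM), with a median of 0.51 ± 0.11. Besides Col6a1, the collagen genes Col27a1 (2.26), Col6a3 (1.85), Col4a4 (1.83) and Col4a3 (1.75) and the perlecan gene Hspg2 (1.56) were called higher. Another Col4a3 peak was at 0.07 and not called. Timp3, a protease inhibitor, and Sparc were the lower ones at -1.14 and -1.05, Sparc not being called without TMM (-0.94), and Timp3 lies within the span of Syn3. Of the 36 podocyte peaks, 9 were called higher and 2 lower, with a median of 0.51 ± 0.10. The podocyte list shares Col4a3 and Col4a4 with the matrix list, its calls higher were in 4 of 9 genes, and Actn4 (-0.80), the slit diaphragm gene Nphs1 (-0.26) and Synpo (-0.17) had peaks below 0 that were not called, and the 2 lower rows were 1 place in Vegfa, not called without TMM (-0.99). Matrix peaks had a median input count of 150.1 reads, and of the 29 of up to 1000 bases 10 lay above the median of their input group, as did 8 of 19 podocyte peaks.

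In the immediate early and KLF list, 4 of 18 peaks were called higher, with a median of 0.68 ± 0.08, and 14 of 15 lay above the median of their input group. By edgeR, DESeq2 and limma-voom 0 were called lower, with 2 below 0 at an unadjusted p under 0.05 in edgeR. The called ones were 2 places, in Ier2 (1.71) and Ier5l (1.71), and the AP-1 gene Jun was at 0.59 and 0.64 without a call. Of 73 Zfp zinc finger peaks, 12 were called higher and 2 lower, with a median of 0.43 ± 0.11 at a median input count of 54.3 reads, and 28 of 54 were above the median of their input group. Zfp704 led this list, with Zfp30 (1.84) and Zfp651 (1.5), and both lower rows were 1 place in Zfp503 (-1.11), not called without TMM (-0.9994).

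For the xenobiotic enzymes the median and the calls had opposite directions. The median of 41 peaks was 0.55 ± 0.10, yet 11 were called lower and 2 higher. The 18 rows of Ugt1a6b in the table cover 1 place on chromosome 1 (88218250 to 88218536), an exon shared by the Ugt1a glucuronosyltransferases, with log2 ratios of 0.59 to 0.61 and no call. The other 23 peaks had a median of -0.73 ± 0.09 and held all of these calls, led by Ugt3a1 at -2.0 (standard error 0.15), Ugt2b37 (-1.53) and the cytochrome P450 gene Cyp2j5 (-1.29). The higher rows were 1 place in Fmo2 at 1.03 (standard error 0.17), which fell to 0.97 without animal 2 and to 0.94 without animal 3 and was then no longer called. Of the 31 peaks of up to 1000 bases, 24 lay above the median of their input group, the Ugt1a6b rows being among the 31.

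The remaining lists had medians between -0.25 and 0.15. They were the nucleolus and ac4C writer list (72 peaks, 10 called higher and 1 lower, median 0.00 ± 0.06), SR, hnRNP and Ddx proteins of RNA processing (228 peaks, 19 and 14, or 25 and 5 without TMM, -0.18 ± 0.04), chromatin (146 peaks, 11 and 4, -0.05 ± 0.06), and actin and myosin (133 peaks, 11 and 2, -0.03 ± 0.08). Without TMM, the last 2 medians changed sign, to 0.06 and 0.08. Senescence and tubular injury genes (35 peaks, 4 and 1, -0.25 ± 0.07) and the circadian clock (6 peaks, 0 and 0, 0.15 ± 0.30) completed the set. Of the senescence peaks of up to 1000 bases, 21 of 32 lay above the median of their input group. So did 13 of 30 nucleolar, 45 of 111 RNA-processing and 45 of 87 chromatin peaks. For actin and myosin it was 25 of 56, and for the clock 2 of 6. The senescence median over its input groups was 0.23, opposite in sign to the list median. Examples of calls were the splicing factors Snrnp70 (1.57) and Ddx5 (-1.36), the chromatin remodellers Smarcd3 (1.75) and Chd3 (-1.29), and the cytoskeletal genes Tpm3 (1.82) and Myl12a (-2.10). Neither direction was called for the clock by edgeR, DESeq2 or limma-voom, with 3 peaks above and 1 below 0 at an unadjusted p under 0.05 in edgeR. Of 3 kept rows of mitochondrially encoded RNA, the 2 of mt-Nd2 (1.33), which are 1 place, were called higher and that of the transfer RNA mt-Th (-1.04) lower, which was not called without TMM (-0.93).

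**Figure D4:**
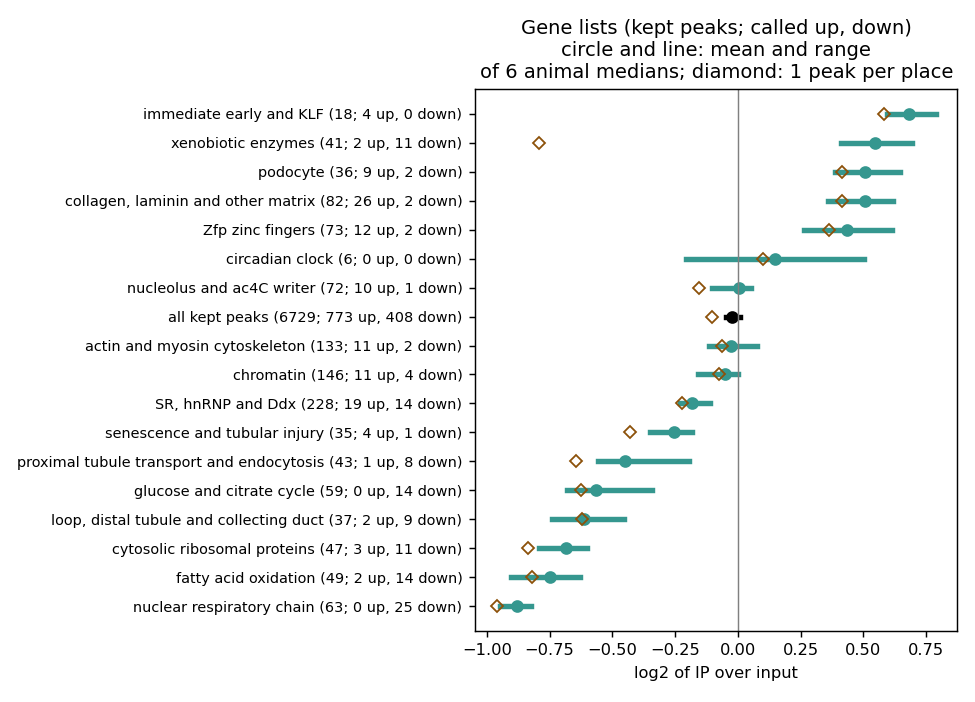
Median log2 ratio of IP over input for each gene list (circle, mean of 6 animal medians; line, lowest to highest animal) and with 1 peak per place (diamond), beside the number of kept peaks and of those called up and down. The energy metabolism lists lie between -0.56 and -0.88, and the xenobiotic list moves from 0.55 to -0.79 when each place counts once.

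Of the genes that write the mark, Nat10 had 1 peak (chromosome 2, 103725109 to 103725760), with 112 to 257 IP and 82 to 104 input reads. Its log2 ratio was -0.62 (standard error 0.16, adjusted p = 0.00023, edgeR), with animal values from -1.13 to -0.03, and it was not called because it did not pass the fold threshold. Thumpd1 had no peak in the table. The nucleolar genes with calls were Tcof1 at 1.74, Gar1 at 1.56, Ncl at 1.47, Rrs1 at 1.04 and Fbl at 1.01, called higher, and Utp20, called lower at -1.14. Another peak of Ncl was at -0.93, and peaks of Bms1 (-0.81), Nhp2 (-0.78) and Npm1 (-0.71) were also below 0 without a call. Pappa, which encodes a metalloproteinase of the insulin-like growth factor axis, had 2 peaks, both with fewer than 10 input reads on average and therefore without a ratio. The better covered one had 69, 42, 37, 10, 15 and 22 IP reads and 0, 3, 4, 2, 2 and 1 input reads in animals 1 to 6.

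Ratios also differed between places of 1 gene. Coding genes with at least 2 kept places of up to 1000 bases that did not overlap numbered 341. Within such a gene the highest and lowest place differed by a median of 0.62, and by over 1 in 107 genes (31.4%), of which 105 kept the order of the 2 places in all 6 animals. The places were picked by the mean of the same animals, so this order is largely set by that choice and is a description only. In 12 genes 1 place was called higher and another lower. The first place along the gene exceeded the last by 0.13 ± 0.05 (SD, n = 6 animals, exact sign-flip permutation test, two-sided, p = 0.0312) and did so in 196 of the 341 genes (57.5%). With at least 50 input reads this was 0.04 (exact p = 0.156).

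Of these 12 genes, Hmgb1, a chromatin and alarmin protein, had the most input reads at its higher place. Its place from 149048707 to 149049554 on chromosome 5 had 27890 to 40452 IP reads and 3085 to 4510 input reads, with animal ratios of 1.43 to 1.67 and a log2 ratio of 1.54 (standard error 0.04). Its place from 149050426 to 149050632 had 405 to 568 IP and 272 to 400 input reads, with animal ratios of -1.32 to -0.78 and a log2 ratio of -1.01 (0.10). The animals did not overlap between the places. The lower call was lost without TMM (-0.90) and without animal 1 (-0.9965) or 3 (-0.95), and Hmgb1 has processed copies elsewhere in the genome with which reads may be shared.

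In Vegfa, the growth factor that podocytes supply to the glomerular endothelium, the place from 46031414 to 46031802 on chromosome 17 was at 1.27 (standard error 0.10) and that from 46018247 to 46018485 at -1.11 (0.06), with 1223 to 1711 IP and 989 to 1104 input reads at the second. Mean input reads were 136 at the first place and 1048 at the second. Slc9a3r1, a scaffold of the proximal tubule brush border, had a mean ratio of 1.22 ± 0.11 (SD, n = 6) at its start and -1.17 ± 0.12 further inside. In Acsm2, the place from 119596071 to 119596461 on chromosome 7 was at 1.48 ± 0.16 and that from 119573599 to 119573719 at -1.35 ± 0.13. The splicing factor U2af2 had 1.51 ± 0.19 at its end and -1.05 ± 0.16 inside (not called without TMM), and the RNA-processing gene Acin1 had 1.09 ± 0.09 and -1.16 ± 0.17. Mean input reads at the higher and lower place were 788 and 980 in Slc9a3r1 and 109 and 453 in U2af2. They were 2142 and 492.5 in Acsm2 and 978.5 and 449 in Acin1. The largest span was in Eif3j2, from 2.63 ± 0.28 at its start to -1.84 ± 0.41 inside the gene, on means of 31.3 and 38.2 input reads.

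**Figure D5:**
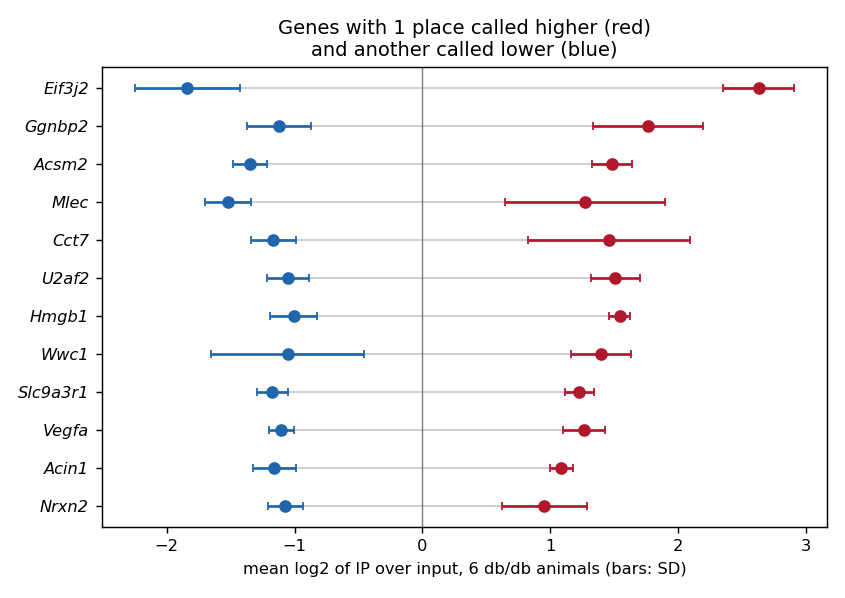
Mean log2 ratio of IP over input in 6 db/db animals, with SD bars, at the highest (red) and lowest (blue) place of the 12 coding genes in which 1 place was called higher and another lower. The places lie on both sides of 0, from -1.84 to 2.63 in Eif3j2 and from -1.01 to 1.54 in Hmgb1.

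Markers of kidney were checked in the input libraries. Of 10 markers, 7 had a peak, with a summed input level of 799 to 1850 CPM, and Cubn, Umod and Slc12a3 had none. The most abundant was the loop gene Slc12a1, with a median of 477 CPM. The podocyte marker Nphs1 had a median of 21.7 CPM. Blood, liver, leukocyte and skeletal muscle markers had no peak in the table. Reads were counted only in peaks, so this does not show that their transcripts were absent. Of 5 adipocyte markers, 3 had a peak, Fabp4 and Cidec had none, and Lpl was the most abundant, with a summed input level of 4.26 to 7.11 CPM for the list.

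Of 4 lung markers, 3 had a peak, namely the surfactant genes Sftpc and Sftpa1 and the club cell gene Scgb1a1, and Sftpb had none. Their reads were found in the IP libraries of 4 animals and hardly anywhere else. The 3 peaks together had 378, 300, 266, 95, 2 and 2 IP reads in the 6 db/db animals in the order of their numbers, and 0, 1, 2, 0, 0 and 2 input reads. In the db/m animals they had 0 to 4 reads in IP and 0 to 3 in input. Sftpc alone had 193, 151, 135, 45, 0 and 0 IP reads, at a peak of 3141 bases. These peaks fell under 10 input reads and have no ratio. A fit of animals 5 and 6 alone called 800 kept peaks higher and 440 lower.

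The peaks without a ratio were thin. Of the 3128, 2152 had a mean of under 1 input read, their median was 0.333 input and 2.67 IP reads per library, and 386 had 0 reads in all 6 input libraries. In the fit, 551 of them were called higher and 64 lower, which brings the calls over all 9857 peaks to 1324 (13.4%) and 472 (4.79%). At the threshold itself, the kept peak with the fewest input reads was in Gm16170, with a mean of 10 and a log2 ratio of 0.11, and the nearest peak below was in Mex3c, with a mean of 9.83 and a log2 ratio of 2.39.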

How the data were processed

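The authors' deposited table held read counts per peak, 1 column for each IP and input library, beside each peak's position, length and gene on GRCm38 (submitters' processing notes). Per the file headers, the Length column gives a number of bases that is not a count. The authors' columns of fold enrichment, p-values, FDR, scores and group comparisons were not used. Peaks carry the names of a test and a control list, taken here as lists of db/db and db/m mice, so some places stand in the table as 2 rows. The aligner, peak caller and counter were not given in the sources used here. Counts were not separated by strand.

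Counts were fitted over all 9857 peaks in edgeR 4.0.16 (R 4.3.3) by the quasi-likelihood test, with TMM scaling, the animal as a block and Benjamini-Hochberg adjustment. The block follows the shared animal numbers: over peaks, each IP library's deviations from its group mean correlated with those of its own input at r = 0.421 to 0.705, and with those of any other input at no more than 0.242, so its own was the highest in 6 of 6. The biological coefficient of variation was 0.114, and the prior degrees of freedom were infinite, so that all peaks were tested against the common trend of the spread alone. Calls needed an adjusted p under 0.05 and an absolute log2 ratio over 1. Limma-voom (limma 3.58.1), DESeq2 1.42.0, a fit without the block, library sizes without TMM, other input minimums, 1 peak per overlap group and leaving out each animal were alternatives. Counts were also simulated with these library sizes, 1 spread common to all peaks and no effect of the animal. There, 100 of 100 kept peaks changed by 1.5 on the log2 scale and 100 of 100 changed by 2.5 were called, and 0 unchanged ones. Changes near the fold threshold and a spread that differs by peak were not simulated, so error rates in the real data cannot be read from this. Classes were compared by exact sign-flip permutation over animals (scipy 1.17.1).

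Libraries held 3160992 to 9862426 reads in peaks. A count of 0 allows up to 3 reads, 0.307 to 0.359 CPM in IP and 0.913 to 1.01 CPM in input, for counting error only. Libraries of a group differed by more than sampling noise and were kept as separate animals.

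Named peaks, 1 per gene, were called kept peaks with the same sign in all 6 animals: the 10 highest and 10 lowest coding peaks of up to 1000 bases, the 4 highest and 4 lowest over 1000 bases and of other biotypes, the highest and lowest of each list with 5 or more such peaks, and Nat10, Thumpd1 and Pappa. Some of these are not reported here. Genes named beside these were chosen after their values were seen. The members, lists and tests were chosen with earlier results of these data known.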

Additional observations from a re-analysis of the deposited data

Results flagged for a closer look

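Values of single animals were screened for one that stood far from the rest of its group. Of 138 groups of animals examined, 11 held such a value, and chance alone gives about 1 in 20 groups, here 6.9. In db/db mice, animal 3 was high at Aebp2 (3.55), animal 1 at Tnip1 (-0.58, on 4 IP and 3 input reads) and animal 5 at Ubap2l (-1.94, on 38 IP and 52 input reads). In db/m mice, animal 2 stood apart at 5 peaks, with 6.43 at Gm10800, 3.96 at Hnrnpll, 2.65 at Col4a4, 1.71 at Scnn1a and 0.86 at Adgrg1. Animal 4 was low at Zfp503 (-1.41) and animal 1 high at Ubap2l (-1.92). Animal 2 was also high for peaks of up to 300 minus 300 to 1000 bases (0.0563).

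The Ndufb8 peak differed between the genotypes by 0.47 on the log2 scale, with -1.95 in db/db and -2.40 in db/m mice. The adjusted p of the difference was 0.0293 over all 9857 peaks (edgeR), and the difference did not pass the fold threshold.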

How the results depend on the processing

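Of 660 values of the 60 named called peaks under alternatives, 652 kept their call, 8 lost it and 0 changed sign. The 8 were at Fmo2, the lower Hmgb1 peak (also -0.97 with low input removed before the fit), the lower Vegfa peak (-0.99 without TMM) and Zfp503 (-0.9994 without TMM). Calls higher in IP numbered 306 with at least 50 input reads, 1324 with no minimum, 375 with 1 peak per overlap group and 2329 with no fold threshold. Calls lower in IP numbered 251 without TMM, 2508 with no fold threshold and 1544 with that and 1 peak per overlap group (added after seeing the data, as was the fit of animals 5 and 6). The calls were 746 and 446 by DESeq2, 778 and 402 by limma-voom, and 777 to 818 and 374 to 431 with 1 animal left out. Without the replicate block they were 792 and 391, and the genotype difference passed at 0 peaks in place of 2. With at least 50 input reads, short minus long peaks were at -0.0634, short minus middle length at -0.171, start minus end at -0.0663, first minus last place at 0.0399 and db/db minus db/m list at 0.0423. With 1 peak per overlap group, short minus middle length was -0.00844, long noncoding minus coding -0.166 and db/db minus db/m list -0.0457. Short minus middle length was 0.0441 over the db/db list alone and 0.143 within groups of like input level, a comparison added after seeing the data, where NMD minus coding was -0.0962 and start minus end 0.0293. With no minimum, long noncoding minus coding was 0.102 (exact p = 0.5) and end minus inside 0.0384 (exact p = 0.125). The cause of these changes was not tested.

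With 5 animals an exact p cannot go below 0.0625. Leaving out 1 animal gave 0.14 to 0.16 for short minus long, 0.11 to 0.13 for middle minus long, 0.13 to 0.15 for NMD, 0.15 to 0.19 for long noncoding, 0.31 to 0.34 for start minus inside, 0.10 to 0.12 for end minus inside, 0.19 to 0.24 for start minus end and 0.12 to 0.15 for first minus last place. Without TMM, which raises ratios by about 0.11, list medians were -0.50 for the loop and distal tubule, 0.62 for podocyte, -0.57 for ribosomal proteins, -0.77 for the respiratory chain, -0.63 for fatty acid oxidation, 0.66 for xenobiotic enzymes, 0.62 for matrix, 0.80 for immediate early genes, 0.12 for the nucleolus, -0.0683 for SR, hnRNP and Ddx, 0.0621 for chromatin, -0.14 for senescence and 0.0838 for actin and myosin. With 10 to 50 input reads, the median SD among animals was 0.481, against 0.218 with 50 or more.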
